A study of Mus musculus with 12 samples.

Results

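The Wnt ligand, receptor and antagonist genes were followed across 12 RNA-seq libraries of mouse lens collected at P7 (an age of 7 days). A gene belonged to the set when it was annotated as protein coding and its symbol was that of a Wnt ligand, a frizzled receptor (*Fzd*), a secreted frizzled-related protein (*Sfrp*) or a Dickkopf protein (*Dkk*), or was *Axin2*, *Lef1* or *Wif1*. The rule used names alone and found 40 of the 55487 gene identifiers in the table: 19 Wnt ligands, 10 frizzleds, 9 secreted antagonists and 2 nuclear or feedback genes of the pathway. The lenses came from wild-type mice (WT), from a *Trpm3*-KO line made by homologous recombination, and from a CRISPR/Cas9-edited line with isoleucine replaced by methionine in the TRPM3 cation channel, on 1 allele (*Trpm3*-I/M) or both (*Trpm3*-M/M). All lines were kept on the B6J background and no treatment was given. Each genotype had 3 libraries, and each library is described as a pool of 4 male and 4 female whole lenses, so no value belongs to a single lens or mouse. The labels number the samples without saying whether the pools came from separate mice, and the p-values measure the spread between these samples.

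Wnt ligands are lipid-modified secreted proteins that bind frizzled receptors, which work together with the LRP5/LRP6 co-receptors to stabilise β-catenin or, without them, steer planar cell polarity and calcium signalling. Secreted frizzled-related proteins and *Wif1* bind the ligands outside the cell, and *Dkk1* and its relatives block the co-receptors, whereas β-catenin in the nucleus acts with LEF1 and TCF proteins on targets such as *Axin2*, a scaffold that feeds back on the pathway. In the lens, Wnt signalling is known for its part in keeping the epithelium and in the alignment of fiber cells.

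Depth ran from 56162169 to 82090198 counts on genes per library. *Trpm3* itself was at 250.6 to 285.1 CPM (counts scaled to the library's total, with TMM factors between libraries) in WT and 89.9 to 99.7 in KO libraries, against 370.2 to 413.4 in I/M and 468.5 to 484.1 in M/M. The substitution itself cannot be seen in gene counts. I/M replicate 3 had 0.0721 CPM of *Xist*, against 45.8 to 304.9 in the other 11 libraries, which puts its stated mix of sexes in doubt. Lens fiber markers were abundant in every library, with a summed level of 137340 to 225955 CPM over 10 genes. Scaling by library size alone, in place of TMM, moved the median log2 fold change of all genes tested to 0.20 in I/M and to 0.50 in M/M against WT. It raised the share of calls that were higher from 77.6% to 87.5% in I/M, from 71.8% to 94.3% in M/M against WT, from 78.2% to 94.5% in M/M against I/M and from 70.0% to 91.9% in M/M against KO. Changes are therefore given relative to the bulk of the genes, and each direction that library size alone turned is named beside its value. Neither the labels nor the column names give a batch, but the columns of M/M replicate 3 and KO replicate 2 carry an added letter c of unstated meaning.

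A short list of genes carried nearly all Wnt pathway RNA of this kind in the WT lens. Levels between genes were compared as CPM per kb of merged exons, and 10 of the 40 genes reached 1 CPM per kb in WT. *Dkk3*, a divergent Dickkopf protein, led with 498.2 ± 12.3 CPM per kb (SD, n = 3), followed by *Sfrp1* with 246.6 ± 3.09. The leading ligands were *Wnt7b* with 119.1 ± 3.85, *Wnt7a* with 26.2 ± 0.203 and *Wnt5b* with 12.5 ± 1.46 CPM per kb. *Fzd1* was the leading receptor with 12.3 ± 0.801 CPM per kb, and its 3 WT libraries overlapped those of *Wnt5b*. *Fzd6* followed with 4.43 ± 0.272 CPM per kb. *Fzd2*, *Fzd3* and *Fzd7* were at 2.12 ± 0.48, 1.81 ± 0.216 and 1.53 ± 0.248 CPM per kb, and neighbours in that order overlapped. From *Axin2* (0.914 ± 0.11) over *Wnt9a* and *Wnt5a* to *Fzd4* (0.644 ± 0.0475 CPM per kb) neighbouring genes overlapped as well. At every other step of the order down to *Fzd5*, at 0.323 ± 0.0244 CPM per kb, the WT libraries of neighbouring genes did not overlap.

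**Figure D1:**
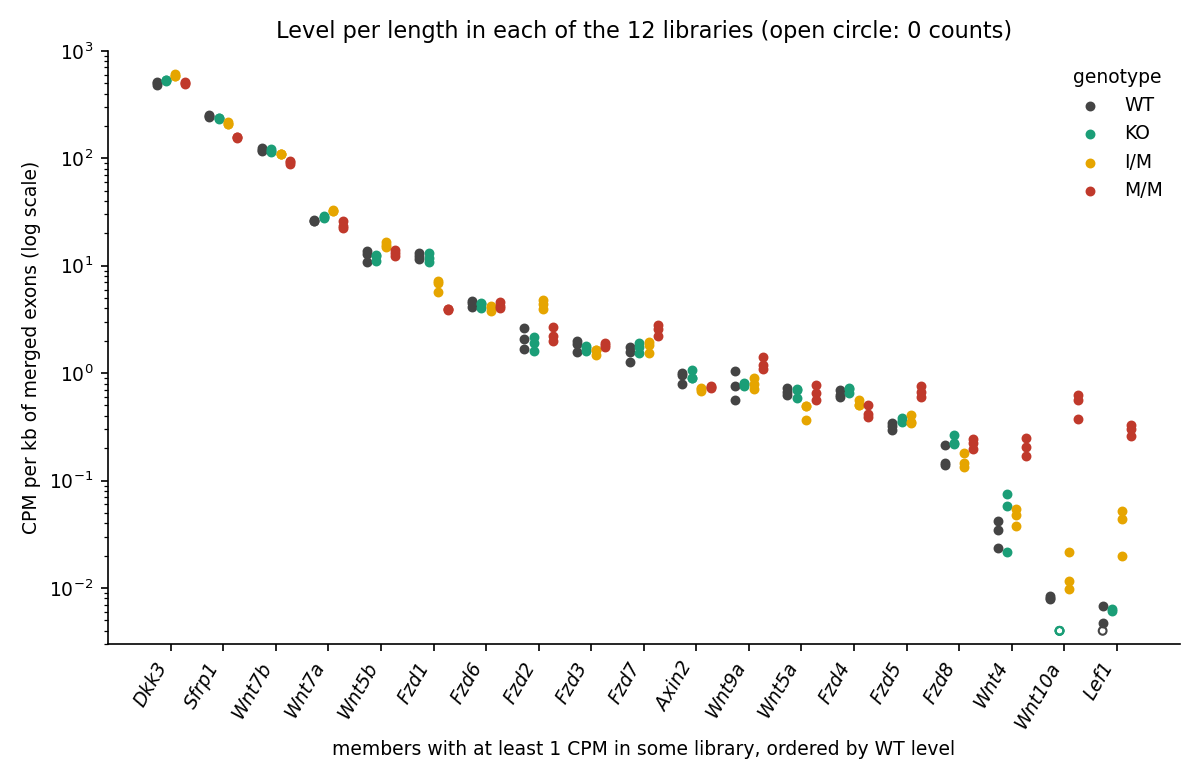
Level of each gene that reached 1 CPM in some library, as CPM per kb of merged exons on a log axis, ordered from left to right by its WT level. Each point is 1 library and colours give the genotype; *Fzd1* steps down through I/M to M/M, whereas *Wnt4*, *Wnt10a* and *Lef1*, at the low end, are highest in the M/M libraries.

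Of the 40 genes, 21 stayed under 1 CPM in all 12 libraries. These were *Wnt1*, *Wnt2*, *Wnt2b*, *Wnt3*, *Wnt3a*, *Wnt6*, *Wnt8a*, *Wnt8b*, *Wnt9b*, *Wnt10b*, *Wnt11*, *Wnt16*, *Fzd9*, *Fzd10*, *Sfrp2*, *Sfrp4*, *Sfrp5*, *Dkk1*, *Dkk2*, *Dkk4* and *Wif1*. *Dkk4* had 0 counts in every library. Genes were tested when they reached 5 CPM in at least 3 of the 12 libraries, which 13 of the 40 did: 4 ligands, 6 frizzleds, *Dkk3*, *Sfrp1* and *Axin2*. A wider test at 1 CPM in at least 3 libraries took in 5 more, *Fzd4*, *Fzd8*, *Wnt9a*, *Wnt10a* and *Lef1*. *Fzd5* passed the 5 CPM filter, which is set on CPM before TMM scaling, and *Wnt10a* and *Lef1* passed the 1 CPM filter through their M/M libraries alone. These 3 thus entered through the group in which they were highest, and their calls in M/M support nothing about the set.

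Between KO and WT lenses none of the 13 genes tested passed the adjusted p of 0.05 in edgeR's quasi-likelihood test, in either direction. Over all 8984 genes tested, 2.16% rose and 2.20% fell at that threshold, and 0.568% were also changed at least 2-fold. At an unadjusted p under 0.05 there were 2 of the 13, without a share of all genes to set beside them. The largest of the 13 differences was that of *Fzd7*, at 6.94 ± 1.13 CPM in WT and 7.9 ± 0.861 in KO (log2 fold change 0.19, SE 0.13, adjusted p = 0.516). DESeq2 called none of the 13 at 2-fold either.

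With TMM scaling, *Fzd5* and *Fzd7* rose in M/M against WT, and *Fzd1*, *Sfrp1*, *Wnt7b* and *Axin2* fell, of which library size alone turned *Wnt7b* and *Axin2*. In I/M against the same WT libraries *Dkk3*, *Fzd2*, *Wnt5b* and *Wnt7a* rose, and *Fzd1*, *Sfrp1*, *Wnt7b*, *Axin2* and *Wnt5a* fell, of which library size alone turned *Wnt7b*. In M/M, 2 of the 13 genes rose and 4 fell at an adjusted p of 0.05, against 31.4% of all genes rising and 31.4% falling. In I/M, 4 rose and 5 fell, against 17.3% and 15.3% of all genes. With the added condition of a 2-fold change, 2 of the 13 were called in M/M (8.95% of all genes) and 1 in I/M (3.33%). Of the 2 in M/M, *Fzd5* entered the test through its M/M libraries alone. Between M/M and I/M themselves, 4 were higher and 7 lower in M/M, against 25.6% and 25.7% of all genes. Of the 7 that were lower, library size alone turned *Wnt5b*, *Wnt7b* and *Dkk3*. None of the 13 was called at 2-fold (4.70% of all genes), and DESeq2 called none. At an unadjusted p under 0.05 there were 11 of the 13, a count for which no share of all genes was taken. Between M/M and KO 1 of the 13 was called at 2-fold (9.78% of all genes). The median log2 fold change of the 13 was −0.03 in M/M and −0.13 in I/M against WT, beside medians of 0.00 over all genes. The 3 comparisons with WT share their WT libraries.

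**Figure D2:**
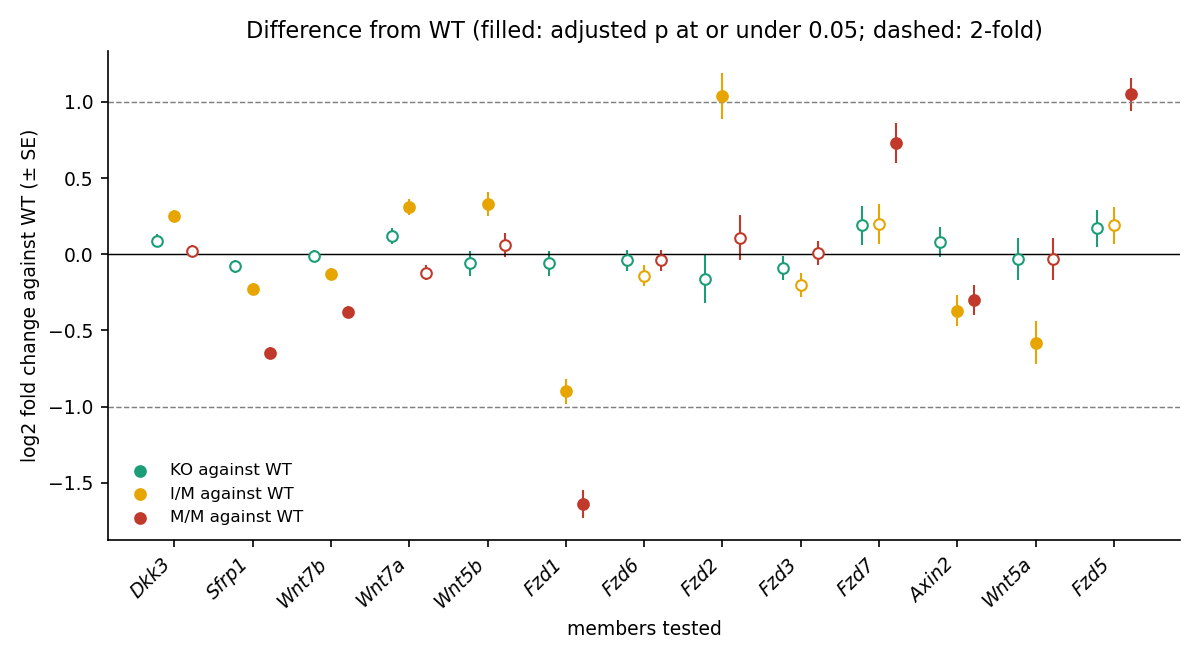
Log2 fold change against WT, with its SE, of the 13 genes tested at 5 CPM, ordered by WT level per length. Filled points passed the adjusted p of 0.05 and dashed lines mark a 2-fold change; *Fzd1* in M/M lies lowest, at −1.64, and *Fzd5* in M/M and *Fzd2* in I/M lie just above the upper dashed line, at 1.05 and 1.04.

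*Fzd1*, the leading frizzled of the WT lens, fell with the number of mutant alleles. It lies on chromosome 5 (GRCm38, 4753839 to 4758035, minus strand). Its level was 55.1, 51.6 and 48.4 CPM in the WT libraries and 49.1, 45.3 and 54.8 in KO. In I/M it was 30.1, 28.8 and 24.1 CPM, and in M/M 16.4, 16.6 and 16.7. All I/M libraries lay below all WT and KO libraries, and all M/M libraries lay below all I/M libraries. The log2 fold change was −1.64 in M/M against WT (SE 0.09, adjusted p = 2.65e-09) and −0.90 in I/M against WT (SE 0.08, adjusted p = 2.98e-06). M/M differed from I/M by −0.74 (SE 0.09, adjusted p = 1.18e-05), and from KO by −1.59 (SE 0.09, adjusted p = 3.42e-09). KO and WT overlapped (log2 fold change −0.06, SE 0.08, adjusted p = 0.793). Of the lens epithelium markers, *Foxe3* moved the same way, from 76.7 to 104.7 CPM in WT to 41.7 to 54.5 in I/M and 17.9 to 21.2 in M/M, whereas *Pitx3* was at 78.4 to 82.1 in WT and 94.8 to 106.0 in M/M. *Pax6* went from 81.5 to 90.9 CPM in WT to 54.4 to 57.3 in M/M, and *Gja1* from 38.6 to 42.4 CPM in WT to 14.6 to 17.5 in I/M and 18 to 24.8 in M/M. The 6 epithelium markers summed to 21638.4 to 26329.9 CPM in WT and 19576.9 to 21688.7 in M/M, a sum that is nearly all *Cryab* (21294.3 to 25982.3 CPM in WT). Of the 6, 1 rose and 3 fell in M/M, beside 31.4% of all genes in each direction. Their part in the fall of *Fzd1* was not tested, and in bulk RNA fewer cells of a type and less RNA per cell cannot be told apart.

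*Fzd5*, *Fzd7* and *Fzd2* moved in other ways. *Fzd5*, a receptor needed in eye development, was at 2.4, 2.25 and 2.06 CPM in WT and 2.5, 2.42 and 2.63 in KO. It was at 2.37, 2.43 and 2.84 in I/M and rose in M/M, to 4.14, 4.58 and 5.2 CPM. The M/M libraries lay above all others (log2 fold change 1.05 against WT, SE 0.11, adjusted p = 3.03e-06). The rise was 0.87 against I/M (adjusted p = 2.28e-05) and 0.88 against KO (adjusted p = 1.26e-05). Without WT replicate 3 or M/M replicate 3 it was 0.99 or 0.96 against WT, just under 2-fold. *Fzd7*, a receptor of stem and epithelial cells, was at 7.98, 7.1 and 5.75 CPM in WT, 7.98, 7 and 8.72 in KO, 8.79, 8.21 and 6.98 in I/M and 12.8, 11.7 and 10.1 in M/M. It too was higher in every M/M library than in any other (0.73 against WT, SE 0.13, adjusted p = 0.000228, and 0.53 against I/M, adjusted p = 0.00282).

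*Fzd2* rose in the heterozygous lenses and not in the homozygous ones. It was at 9.61, 7.63 and 6.11 CPM in WT and 7.94, 5.93 and 7.03 in KO. The I/M libraries held 17.5, 16 and 14.6 CPM, above all libraries of the other genotypes, and the M/M libraries held 9.74, 8.17 and 7.27, within or near the WT range. The log2 fold change in I/M against WT was 1.04 (SE 0.15, adjusted p = 0.00015), and M/M differed from I/M by −0.94 (SE 0.14, adjusted p = 0.000131), which became −1.05 and a call at 2-fold without M/M replicate 1. In M/M against WT it was 0.11 (SE 0.15, adjusted p = 0.569). Leaving out WT replicate 3 or I/M replicate 1 took the rise in I/M to 0.89 or 0.98, under 2-fold. Leaving out I/M replicate 3, whose mix of sexes is in doubt, gave 1.11 (adjusted p = 0.00032), and without it those of the 13 genes that passed in I/M against WT still did, other than *Wnt7b* and *Axin2*. *Fzd3*, a receptor of planar polarity, and *Fzd6*, its close relative, passed no test against WT. *Fzd3* ranged from 19 to 25.5 CPM over the 12 libraries and *Fzd6* from 18.2 to 22.6. *Fzd6* was at 21.5, 20 and 22.6 CPM in WT, 19.3, 21.8 and 21.1 in KO, 18.2, 20.3 and 19.7 in I/M and 19.5, 20.5 and 22.2 in M/M, and its log2 fold change in M/M against WT, −0.04 with TMM scaling, became 0.47 with library size alone.

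The make-up of the frizzled RNA differed between genotypes. The 10 frizzleds summed to 23.4 ± 1.45 CPM per kb in WT, 22.9 ± 1.43 in KO, 19.5 ± 1.12 in I/M and 16.6 ± 0.288 in M/M (SD, n = 3). With TMM factors of 0.828 to 0.905 in WT and 1.22 to 1.27 in M/M, the fall of this sum in M/M does not hold on library size alone. *Fzd1* made up 52.5% ± 1.29 of that sum in WT, 51.7% ± 1.78 in KO, 33.7% ± 1.97 in I/M and 23.9% ± 0.673 in M/M. *Fzd2* made up 9.01% ± 1.51 in WT and 22.5% ± 0.98 in I/M. *Fzd6* became the leading frizzled in M/M by mean, with 26% ± 2.11, although in M/M replicate 1 it lay close to *Fzd1*. *Fzd7* made up 6.51% ± 0.746 of the sum in WT and 15.4% ± 1.56 in M/M, and *Fzd5* 1.38% ± 0.0478 and 4.06% ± 0.533. These shares move with each other by construction and carry no test.

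**Figure D3:**
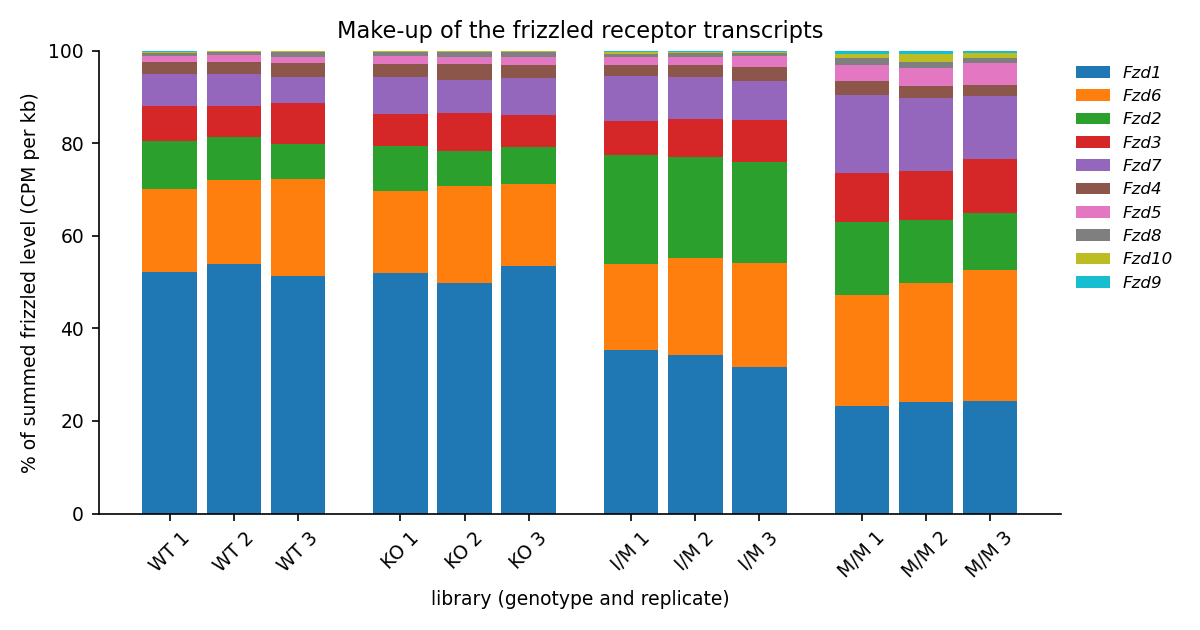
Share of each frizzled in the summed frizzled level (CPM per kb) of each library, in percent, with 1 bar per library grouped by genotype. *Fzd1* fills 52.5% of the bar on average in WT, 33.7% in I/M and 23.9% in M/M, and the *Fzd2* segment is widest in I/M.

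The DNA before the start of these receptor genes was read from RefSeq promoters on GRCm38.p6, which held entries for 28 of the 40 genes with 34 start sites. The 250 bases upstream of each start were searched on both strands for letters known to be bound by TCF and LEF proteins, CTTTG followed by 2 letters that are each A or T. They were found before 5 of the 34 start sites (*Dkk1*, with 2 matches, *Fzd7*, *Lef1*, *Wnt5b* and *Wnt11*) and in 14.8% of the 32851 promoters of the same length in all. The frizzleds that moved in opposite directions in M/M are shown, 5′ to 3′ on the gene's own strand and ending at the base before the start, with matches in capitals. *Fzd1* is at chr5:4758217-4758466 (minus strand), *Fzd5* at chr1:64737751-64738000 (minus strand) and *Fzd7* at chr1:59481897-59482146 (plus strand).
Fzd1: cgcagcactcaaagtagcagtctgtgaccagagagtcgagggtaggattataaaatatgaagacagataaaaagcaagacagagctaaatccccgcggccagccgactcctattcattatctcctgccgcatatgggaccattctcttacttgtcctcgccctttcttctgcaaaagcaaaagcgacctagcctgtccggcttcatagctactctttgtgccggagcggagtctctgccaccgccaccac
Fzd5: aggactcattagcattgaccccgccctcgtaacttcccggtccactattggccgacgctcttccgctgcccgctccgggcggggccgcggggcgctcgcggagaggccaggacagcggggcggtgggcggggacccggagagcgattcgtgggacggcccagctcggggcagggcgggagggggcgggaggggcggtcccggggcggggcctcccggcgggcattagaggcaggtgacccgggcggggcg
Fzd7: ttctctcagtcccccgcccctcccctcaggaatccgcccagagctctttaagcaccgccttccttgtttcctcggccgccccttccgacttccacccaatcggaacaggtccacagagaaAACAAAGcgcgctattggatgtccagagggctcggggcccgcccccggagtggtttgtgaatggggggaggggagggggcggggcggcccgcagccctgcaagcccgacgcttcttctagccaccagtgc
The 7 letters lie 130 bases before the start of *Fzd7*, and the windows of *Fzd1* and *Fzd5* hold no match. The windows of *Fzd5* and *Fzd7* are 76.4% and 65.2% G or C, that of *Fzd1* is 51.2%, and the median over all promoters searched is 52.4%.

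*Sfrp1*, a secreted protein that binds Wnt ligands, fell stepwise. It was at 1076.3, 1092.7 and 1065.9 CPM in WT and 1034.7, 1027.2 and 1008.9 in KO. In I/M it was at 949.3, 910.8 and 904.8 CPM and in M/M at 689.3, 694.3 and 671.8. No library of any genotype overlapped those of the next. The log2 fold change was −0.65 in M/M against WT (SE 0.04, adjusted p = 1.04e-08), −0.23 in I/M (SE 0.04, adjusted p = 0.00065) and −0.08 in KO (SE 0.04, adjusted p = 0.342). M/M was lower than I/M by −0.43 (adjusted p = 1.52e-06). With library size alone the change was −0.14 in M/M (adjusted p = 0.00823) and −0.03 in I/M, where it no longer passed (adjusted p = 0.645).

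*Dkk3* moved the other way and in the heterozygous lenses. It was at 1626.4, 1690.6 and 1703.3 CPM in WT, 1794.7, 1804.6 and 1761.8 in KO, 2041.5, 1972.8 and 1958.8 in I/M, and 1696.9, 1650.9 and 1726.0 in M/M. All I/M libraries lay above all others, and M/M overlapped WT. The log2 fold change was 0.25 in I/M (SE 0.04, adjusted p = 0.000503) and 0.02 in M/M against WT (SE 0.04, adjusted p = 0.766). M/M was lower than I/M by −0.24 (adjusted p = 0.00043), a difference that became 0.07 with library size alone (adjusted p = 0.181). *Wif1*, a secreted inhibitor of the ligands, was near its detection limit, at 0.157, 0.084 and 0.119 CPM in WT, 0.0187, 0.0723 and 0.0939 in KO, 0.135, 0.134 and 0.101 in I/M and 0.3, 0.282 and 0.135 in M/M, and the M/M libraries overlapped those of WT.

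**Figure D4:**
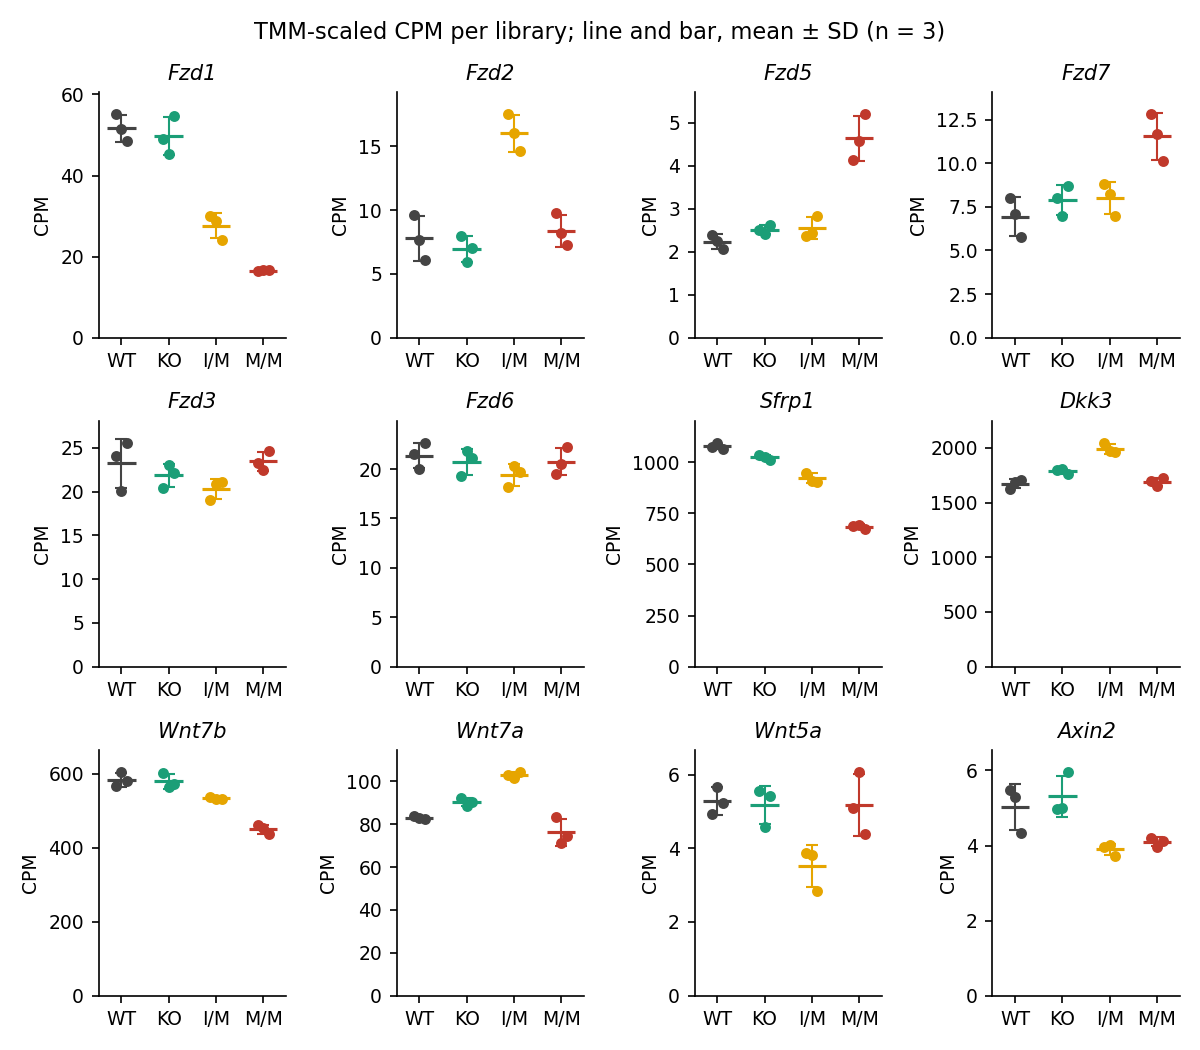
TMM-scaled CPM of 12 genes in each library, with a panel for each gene, its own axis from 0 and the genotypes from left to right. Points are libraries, and lines and bars are mean ± SD (n = 3); *Fzd1* and *Sfrp1* step down from WT to M/M, *Fzd2* peaks in I/M, and *Fzd5* and *Fzd7* are highest in M/M.

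Among the ligands, *Wnt7b*, which signals through β-catenin in many epithelia, was the most abundant and fell in M/M. It was at 566.6, 603.8 and 579.7 CPM in WT, 601.7, 563.7 and 573.6 in KO, 537.0, 532.3 and 530.9 in I/M and 460.2, 453.1 and 435.9 in M/M. The M/M libraries lay below all others (log2 fold change −0.38 against WT, SE 0.04, adjusted p = 4.98e-06), but library size alone turned the direction, to 0.13 (adjusted p = 0.00827). In I/M it was −0.13 (SE 0.04, adjusted p = 0.0339), which library size alone turned to 0.07 and which no longer passed in 5 of the 12 fits with a library left out. The annotated gene *AU022754* overlaps *Wnt7b* on the opposite strand and was at 119 to 212 counts per library, and the strand setting of the counting is not given in the sources used here.

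*Wnt7a*, *Wnt5b* and *Wnt5a* changed in I/M, while none of them passed in M/M against WT in the main test. *Wnt7a* was at 83.7, 82.8 and 82.5 CPM in WT, 92.1, 88.4 and 90.2 in KO, 103.0, 101.4 and 104.2 in I/M and 83.3, 71.2 and 74.4 in M/M. It rose in I/M by 0.31 (SE 0.05, adjusted p = 0.000553) and differed between M/M and I/M by −0.43 (SE 0.05, adjusted p = 1.8e-05), which library size alone took to −0.12 (adjusted p = 0.0669). In M/M against WT it was −0.12 (SE 0.05, adjusted p = 0.0574), and 0.39 with library size alone. It passed as lower in M/M against WT in the wider test. Against KO, *Wnt7a* was lower in M/M by −0.24 (SE 0.05, adjusted p = 0.00117), a direction that library size alone turned too. *Wnt5b* was at 34, 36.6 and 29 CPM in WT, 33.5, 29.6 and 32.7 in KO, 44.4, 41.2 and 39.2 in I/M and 32.4, 36.8 and 34.5 in M/M. It rose in I/M by 0.33 (SE 0.08, adjusted p = 0.00865), with every I/M library above every other. *Wnt5a*, the textbook ligand of the β-catenin-independent branch, fell in I/M, from 5.28 ± 0.371 CPM in WT to 3.51 ± 0.57 (log2 fold change −0.58, SE 0.14, adjusted p = 0.00695). In M/M it was at 5.17 ± 0.846 CPM, against WT a difference of −0.03 (SE 0.14, adjusted p = 0.87) that library size alone took to 0.48 (adjusted p = 0.00365). M/M was higher than I/M by 0.56 (SE 0.14, adjusted p = 0.00432). The 19 ligands summed to 159.6 ± 4.98 CPM per kb in WT, 160.6 ± 5.35 in KO, 158.7 ± 1.76 in I/M and 132.1 ± 3.42 in M/M, of which *Wnt7b* made up 74.6%, 73.7%, 68.6% and 69.5%. On library size alone the ligand sum of M/M lies above that of WT, so its direction turns as well.

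*Axin2* and *Lef1*, the nuclear and feedback genes of the set, went in opposite directions. *Axin2* was at 5.47, 5.29 and 4.34 CPM in WT, 4.97, 5.01 and 5.95 in KO, 3.96, 4.01 and 3.73 in I/M and 4.21, 3.97 and 4.12 in M/M. Its log2 fold change was −0.37 in I/M (SE 0.1, adjusted p = 0.0152) and −0.30 in M/M against WT (SE 0.1, adjusted p = 0.0213), and all I/M and M/M libraries lay below all WT libraries. Library size alone took these to −0.16 (adjusted p = 0.22) and 0.21 (adjusted p = 0.0823). Neither passed without WT replicate 1 (adjusted p = 0.0609 and 0.0873) or without WT replicate 2 (0.0531 and 0.0707). The change in I/M did not pass without I/M replicate 3 (adjusted p = 0.0533), nor that in M/M without M/M replicate 2 (adjusted p = 0.063). *Lef1*, a partner of β-catenin on DNA, had 0, 2 and 3 counts in the WT libraries and 3, 3 and 1 in KO. It had 13, 32 and 32 counts in I/M and 182, 269 and 236 in M/M, or 2.62 ± 0.323 CPM. The summed counts of M/M were 78.4 times those of WT per scaled read (95% exact interval 33.5 to 242.4), and those of I/M 10.2 times (4.17 to 32.2). These intervals cover counting error only. In the wider test of 12638 genes the log2 fold change of *Lef1* was 6.19 in M/M (SE 0.44, adjusted p = 3.81e-08) and 3.27 in I/M against WT (SE 0.59, adjusted p = 0.000902), and 2.92 between M/M and I/M (SE 0.27, adjusted p = 1.32e-06). The annotated gene *Gm43352* overlaps *Lef1* on the opposite strand and had 0 counts in each WT library and 9.12, 23 and 18.8 counts in M/M. The 250 bases before *Axin2* (chr11:108920099-108920348, plus strand) and before the last of the 4 start sites listed for *Lef1* (chr3:131156044-131156293, plus strand, within the gene) are shown as those of the pathway's own target and transcription factor, with matches in capitals.
Axin2: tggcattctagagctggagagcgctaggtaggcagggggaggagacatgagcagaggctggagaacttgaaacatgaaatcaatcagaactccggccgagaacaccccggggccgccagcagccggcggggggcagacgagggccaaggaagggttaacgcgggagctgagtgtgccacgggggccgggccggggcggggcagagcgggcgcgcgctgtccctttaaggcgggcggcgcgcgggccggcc
Lef1: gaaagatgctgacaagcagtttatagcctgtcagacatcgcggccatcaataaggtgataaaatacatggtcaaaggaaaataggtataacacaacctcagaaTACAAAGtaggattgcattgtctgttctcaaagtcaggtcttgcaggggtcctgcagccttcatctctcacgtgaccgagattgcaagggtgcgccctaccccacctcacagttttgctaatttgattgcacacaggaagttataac
The match lies 147 bases before that start of *Lef1*, and the windows of *Axin2* and of the other 3 start sites of *Lef1* hold none.

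*Wnt10a*, a ligand of skin and its appendages, had the largest ratio of M/M to WT counts among the ligands detected in WT. It had 1 count in each WT library, 0 in each KO library, 4, 2 and 2 in I/M, and 74, 143 and 124 in M/M, or 1.29 ± 0.326 CPM. Per scaled read this was 64.9 times the WT sum (95% exact interval 22 to 316.3) and at least 70.6-fold higher than KO, taking 3 counts over the group as the limit that 0 allows. The log2 fold change was 5.86 in M/M (SE 0.42, adjusted p = 2.06e-07) and 0.76 in I/M against WT (SE 0.83, adjusted p = 0.551). With 5 more genes in the wider test, 4 of 18 were called at 2-fold in M/M against WT (12.9% of all genes) and 2 in I/M (5.25%), adding *Lef1* and *Wnt10a*, and 2 in M/M against I/M (7.98%) and 3 in M/M against KO (13.8%). At an adjusted p of 0.05 alone 5 of 18 rose and 6 fell in M/M against WT, beside 30.1% and 30.6% of all genes. *Lef1* and *Wnt10a* entered this test through their M/M libraries alone, so these counts support nothing about the set. *Wnt9a* was among those that rose, from 2.64 ± 0.819 to 4.08 ± 0.561 CPM (log2 fold change 0.61, SE 0.18, adjusted p = 0.0081). *Fzd4*, the receptor of norrin in blood vessels, was among those that fell, from 4.33 ± 0.319 to 2.95 ± 0.422 CPM (−0.58, SE 0.11, adjusted p = 0.000409). *Fzd8* ranged from 0.807 to 1.6 CPM over the 12 libraries, and its log2 fold change in M/M against WT was 0.38 (SE 0.19, adjusted p = 0.0967).

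The genes under the filters were described by their counts. *Wnt4*, which reached 1 CPM in M/M replicate 1 alone, had 5, 7 and 9 counts in WT, 17, 5 and 13 in KO, 17, 13 and 14 in I/M and 83, 79 and 63 in M/M, and the M/M sum was 6.12 times that of WT (95% exact interval 3.91 to 10.1). Of the 21 genes under 1 CPM in every library, 15 had at least 10 counts in all. In 8 of these 15 every M/M library lay above every WT library, beside 21.6% of the 9529 genes of the same kind. In none did every M/M library lie below, a direction closed to genes with 0 counts in a WT library. The share of all genes in that direction was not taken. The 8 were *Wnt6*, *Wnt10b*, *Wnt11*, *Wnt16*, *Fzd9*, *Fzd10*, *Dkk2* and *Sfrp5*. *Wnt10b*, *Wnt16* and *Sfrp5* reached 10 counts only through their M/M libraries, so the count of 8 supports nothing about the set. *Dkk2*, which can promote or block signalling depending on its partner, had 2, 1 and 1 counts in WT and 32, 53 and 53 in M/M, or 19.7 times as many per scaled read (7.52 to 73.3). The other ratios ran from 3 times for *Fzd9* (1.6 to 6.11) to 7.99 times for *Wnt11* (2.95 to 30.4). *Wnt16* and *Sfrp5* had 0 counts in WT and 14 each in M/M, at least 2.66-fold higher against a limit of 3 counts over the group. *Dkk1*, the founding inhibitor of the co-receptors, had 6, 14 and 6 counts in WT, 39, 55 and 21 in I/M and 35, 18 and 30 in M/M. Its sum was 2.92 times that of WT in I/M (1.89 to 4.65) and 1.82 times in M/M (1.16 to 2.95). With no filter on low counts, 13 of the 39 genes with a count were called in M/M against WT, 12 of them higher (10.7% of 32253 genes called), and 3 in I/M (3.77%).

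**Figure D5:**
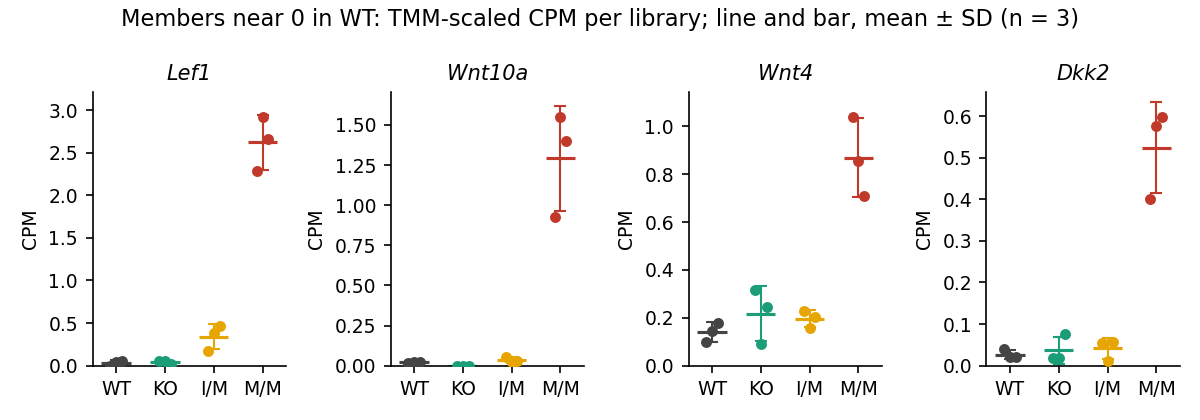
TMM-scaled CPM of *Lef1*, *Wnt10a*, *Wnt4* and *Dkk2* in each library, with a panel and an axis from 0 for each gene. Points are libraries, and lines and bars are mean ± SD (n = 3); the M/M libraries lie above all others in each panel, and *Lef1* lies between in I/M.

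Markers of tissues around the lens moved with these genes. The 7 vascular endothelium markers summed to 6.77 to 8.96 CPM in WT, 6.56 to 7.13 in KO, 17.6 to 24.3 in I/M and 51.3 to 63.3 in M/M. Of the 5 of them that were tested, all were called higher at 2-fold in M/M and 4 in I/M, beside 8.95% and 3.33% of all genes called in either direction. *Pecam1*, *Cdh5*, *Cldn5* and *Vwf* passed the filter through M/M libraries alone, so all but *Tek* entered through the group in which they were highest. *Emcn* was at 0 in 1 WT library. The 9 markers of pericytes and fibroblasts summed to 155.1 to 163.7 CPM in WT and 301.2 to 432.7 in M/M. Most of the M/M sum was *Acta2*, at 169.3 to 253.7 CPM. Of 6 tested, 4 were called higher at 2-fold and 1 lower, beside 8.95% of all genes in either direction. *Cspg4* and *Col1a1* passed the filter through M/M alone. The 1 that fell was *Pdgfra*, at 74.2 to 82.2 CPM in WT and 37.2 to 40.4 in M/M. *Lum* was at 0 in all WT libraries. The 5 macrophage markers summed to 0.278 to 0.357 CPM in WT, 0.663 to 0.795 in I/M and 6.04 to 11.4 in M/M, with *Ptprc* at 0 in WT. The 5 cornea markers summed to 0.236 to 0.436 CPM in WT and 3.66 to 6.72 in M/M, most of it *Aldh3a1*, with *Kera* at 0 in every library. The 5 markers of the neural retina outside the photoreceptors summed to 0.504 to 0.747 CPM in WT and 5.22 to 6.09 in M/M, and the 6 photoreceptor markers to 0.546 to 0.733 and 1.39 to 3.93. The sums of a pair of lists stood apart in I/M. The 4 ciliary epithelium markers summed to 2.16 to 2.79 CPM in WT, 1.96 to 2.25 in KO, 0.93 to 1.3 in I/M and 2.97 to 3.95 in M/M, so that the I/M sum lay below all other genotypes. Its members went different ways. *Msx1* was at 1.61 to 2.42 CPM in WT, 0.404 to 0.559 in I/M and 0.563 to 0.889 in M/M, as low there as in I/M or nearly so. *Zic1* and *Optc* were higher in every M/M library than in any other. The 6 pigmented-cell markers summed to 3.09 to 3.63 CPM in WT, 2.84 to 3.14 in KO, 5.32 to 6.17 in I/M and 2.89 to 3.46 in M/M, with I/M above all others, mostly through *Tyrp1*, and *Rpe65* at 0 in every library. *Fzd2*, *Dkk3*, *Wnt7a*, *Wnt5b* and *Wnt5a* also had their highest or lowest levels in I/M. The 5 red blood cell genes summed to 1.22 to 11.9 CPM in WT and 12.4 to 15 in M/M. Of the 10 lens fiber markers 9 fell in M/M, 1 of them at least 2-fold, and 8 fell in I/M, beside 31.4% and 15.3% of all genes. The part of any of these tissues in the levels of *Lef1*, *Wnt10a*, *Wnt4*, *Dkk2*, *Fzd5* or the other Wnt genes was not tested.

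The other genes of the pathway were taken from a list of 71, of which 47 were tested. None of the 47 passed in KO against WT, with 8 at an unadjusted p under 0.05, again without a share of all genes. In I/M 11 of the 47 rose and 12 fell, beside 17.3% and 15.3% of all genes, and in M/M 16 rose and 12 fell, beside 31.4% of all genes in each direction, with medians of 0.01 and −0.02 on the log2 scale. The calls at 2-fold were 2 in I/M (3.33% of all genes) and 7 in M/M against WT (8.95%), 5 in M/M against I/M (4.70%) and 8 in M/M against KO (9.78%), all higher. Of the 7 in M/M against WT, *Apcdd1*, *Nkd1*, *Tcf7* and *Prickle2* reached the 5 CPM filter through M/M libraries alone, *Igfbp4* through M/M with 1 I/M library and *Sostdc1* through I/M and M/M, so all but *Tle1* could enter the test only by being high there, and their calls support nothing about the list. Of the 7 against WT, *Apcdd1*, *Igfbp4* and *Sostdc1* encode proteins known to inhibit Wnt signalling outside the cell or at its surface. *Apcdd1* was at 0.374, 0.315 and 0.416 CPM in WT, 2.4, 2.7 and 2.61 in I/M and 26.3, 29.7 and 24.7 in M/M (log2 fold change 2.79 in I/M, SE 0.17, adjusted p = 7.29e-08, and 6.18 in M/M, SE 0.14, adjusted p = 3.93e-12). *Igfbp4* went from 2.5 ± 0.242 CPM in WT to 24.7 ± 3.76 in M/M (3.31, SE 0.15, adjusted p = 5.18e-10). *Sostdc1* went from 1.62 ± 0.318 CPM in WT to 8.11 ± 0.795 in I/M (2.32, SE 0.16, adjusted p = 2.05e-07) and 7.71 ± 1.44 in M/M (2.25, SE 0.16, adjusted p = 5.6e-08). *Nkd1*, a feedback inhibitor that the pathway itself induces in many tissues, rose from 2.77 ± 0.298 to 6.56 ± 0.972 CPM in M/M (1.24, SE 0.12, adjusted p = 1.12e-06). *Tcf7*, a DNA-binding relative of *Lef1*, rose from 2.5 ± 0.386 to 5.56 ± 0.342 CPM (1.15, SE 0.13, adjusted p = 3.45e-06). *Tle1*, a corepressor of these factors, rose from 6.27 ± 0.667 to 12.6 ± 0.778 CPM (1.00, SE 0.07, adjusted p = 7.98e-08), a change just under 2-fold in 4 of the 12 fits with a library left out and in the wider test. *Prickle2*, of the planar polarity branch, rose from 1.01 ± 0.195 to 4.66 ± 0.378 CPM (2.21, SE 0.18, adjusted p = 1.9e-07).

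Among antagonists that the 5 CPM filter left out, those described here fell and were singled out after their values were seen. Others, such as *Dkk2* and *Sfrp5*, were higher in M/M. *Draxin*, a secreted guidance protein that also inhibits Wnt signalling, was at 5.98, 5.8 and 5.87 CPM in WT, 3.21, 3.42 and 3.42 in KO, 0.485, 0.498 and 0.678 in I/M and 0.175, 0.163 and 0.079 in M/M. The 4 genotypes did not overlap. In the wider test, which it reached through WT and KO alone, its log2 fold change against WT was −0.81 in KO (SE 0.13, adjusted p = 0.00186), −3.42 in I/M (SE 0.15, adjusted p = 2.35e-09) and −5.42 in M/M (SE 0.19, adjusted p = 2.95e-11). *Trabd2b*, a membrane protease that acts on Wnt ligands, fell from 5.42 ± 0.111 CPM in WT to 2.33 ± 0.253 in M/M (−1.24, SE 0.10, adjusted p = 1.03e-07). *Frzb*, a secreted frizzled-related protein, was at 2.19 ± 0.561 CPM in WT, 0.878 ± 0.119 in KO (−1.32, SE 0.22, adjusted p = 0.00325) and 1.04 ± 0.221 in M/M (−1.09, SE 0.21, adjusted p = 0.000438). *Sost*, the gene of sclerostin, was under the filter of the wider test as well, at 0.399 to 0.714 CPM in WT and 0.0113 to 0.125 in M/M. Of 60 pathway genes in the wider test, 12 were called higher and 3 lower at 2-fold in M/M against WT, beside 12.9% of all genes in either direction. Besides genes named above, *Lrp5*, *Rnf43*, *Lgr5*, *Ror2*, *Tle2* and *Myc* were higher, *Rnf43* also in I/M. Of these, *Lgr5*, *Ror2*, *Tle2* and *Myc* reached the 1 CPM filter through M/M libraries alone, and *Rnf43* through M/M with an I/M library. *Apcdd1* reached it through I/M and M/M. They could enter only by being high there, so the count of 12 supports nothing about the list.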

How the data were processed

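Poly-A-selected RNA of whole P7 lenses was sequenced in 12 samples, assigned to genotypes by their labels. The authors aligned and counted reads with DRAGEN against the Ensembl release 101 mouse assembly and deposited expected counts per gene without normalization, 88.4% of them whole. A second deposited table, which repeats counts and holds CPM and the authors' edgeR comparisons, was not used. Counts were rounded, although whole counts had been assumed, and 168 identifiers listed more than once were used once. All 12 libraries entered 1 fit in edgeR 4.0.16 under R 4.3.3 (quasi-likelihood test, TMM factors, genotype only, CPM of at least 5 in at least 3 libraries), with Benjamini-Hochberg adjustment over all genes tested within each of 5 comparisons. A gene was called at FDR ≤ 0.05 and FC ≥ 2, the thresholds of the paper's methods, which do not name the test within edgeR. Standard errors came from the fold change and the F statistic.

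Lengths and gene positions are from GENCODE M21 (GRCm38). Ratios of summed counts have exact conditional 95% intervals. On simulated data for M/M against WT over 8984 genes, 100% of 67 genes changed 2-fold were recovered and 7 unchanged genes were called. Replicates differed by more than sampling noise, so each library was counted separately. Alternatives were library size only, TMM without the 19 crystallin genes, upper-quartile factors, DESeq2 1.42.0, a CPM of at least 1, no filter, only the libraries compared, the replicate number as a block, and each library left out. The last was also run at a CPM of at least 1, chosen after seeing the data. Python 3.11.15 was used for the rest. Genes and lists were chosen with earlier results of these data known. Values in every library are given for genes called at 2-fold, the 8 with the highest WT level per length, *Axin2*, *Lef1* and *Wif1*. The pathway genes named are those called at 2-fold against WT in the main or the wider test, and *Sost*. *Fzd7*, *Wnt4*, *Dkk1*, *Dkk2*, *Draxin*, *Trabd2b*, *Frzb*, *Sost* and the other genes under the filters with ratios were singled out after their values were seen.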

Additional observations from a re-analysis of the deposited data

How the results depend on the processing

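No member was called in KO against WT under any alternative, and *Fzd1* was called in M/M against WT and against KO under all of them. TMM without crystallin genes, upper-quartile factors, DESeq2 and fits of only the libraries compared left all counts of members called within 1.5 times. A CPM of at least 1 gave 2 members called in I/M against WT (5.25% of all genes), 4 in M/M against WT (12.9%), 2 in M/M against I/M (7.98%) and 3 in M/M against KO (13.8%). No filter gave 3 (3.77%), 13 (10.7%), 9 and 13. Without a filter the share of all genes was not taken for M/M against I/M or against KO, so the counts there cannot be set against it. For the other pathway genes a CPM of at least 1 and no filter gave 1 and 1 in KO against WT (*Frzb*), 4 and 6 in I/M, 15 and 20 in M/M, 11 and 15 in M/M against I/M and 16 and 22 in M/M against KO, with more genes tested by construction. Library size only gave 1 member in M/M against I/M and 3 in M/M against KO, beside 564 and 1315 of the 8984 genes tested. It gave 12 other pathway genes in M/M against WT. Over all genes, the calls in M/M against WT were 804 as reported, 1354 with library size only, 1634 at a CPM of at least 1 and 3455 with no filter, and in I/M 299, 353, 663 and 1215.

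Library size only also turned directions that TMM gave. In M/M against WT the log2 fold change became 0.48 for *Wnt5a*, 0.39 for *Wnt7a*, 0.13 for *Wnt7b*, 0.47 for *Fzd6* and 0.21 for *Axin2*, and in I/M against WT 0.07 for *Wnt7b*. In M/M against I/M it became 0.04 for *Wnt5b*, 0.06 for *Wnt7b* and 0.07 for *Dkk3*, and in M/M against KO 0.22 for *Wnt7a*, 0.09 for *Wnt7b*, 0.38 for *Dkk3* and 0.08 for *Axin2*. All other directions that passed the threshold as reported kept their sign under every alternative run for them.

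With a library left out, the members called ranged from 0 to 1 in I/M against WT, from 1 to 2 in M/M against WT and from 0 to 1 in M/M against I/M. The genes whose calls at 2-fold changed were *Fzd2* and *Fzd5*, both near 2-fold. Replicate numbers did not pair the samples: deviations of the 18 same-numbered pairs correlated at -0.264 to 0.149, and 2 of 12 libraries correlated best with their own number. With the replicate block the counts were 0, 1, 2, 0 and 1 in the 5 comparisons, as without it, while *Wnt7b* in I/M against WT went to an adjusted p of 0.0581 and *Fzd2* in M/M against KO to 0.0318. A group of 3 pooled samples limits what can be seen of single lenses, and genes under 1 CPM rest on few counts.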
